A study of Mus musculus with 240 samples.

Results

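The genes described here are the 39 named members of the DNA replication machinery, found by gene symbol among the 34623 genes of the count table. All 39 are protein-coding genes and all were present. They fall into 6 roles: origin recognition and licensing (6 genes), the MCM helicase with Mcm10 (7), origin firing (6), primase and polymerases (8), the sliding clamp with its loader and Okazaki fragment enzymes (7), and deoxynucleotide supply (5).

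RNA was sequenced from mouse oligodendrocyte precursor cells (OPCs, the dividing glial cells that give rise to myelin-forming oligodendrocytes) that were captured by laser from cryosections of brain. The bulk animals were mice whose genotype is given as Trp53-/- Nf1-/- (CKO) or wild-type (WT), at 12, 90 and 150 days after the start of tamoxifen (dpi). All animals are thus dated from tamoxifen, WT included, and sample names mark the bulk cells as tdT-positive. The CKO samples at 150 dpi are brain tumour cells. The bulk groups held 5 WT and 7 CKO animals at 12 dpi, 5 WT and 7 CKO at 90 dpi, and 6 WT and 7 tumour-bearing animals at 150 dpi. Small libraries of 10 cells came from CKO mice only: 56 libraries of 10 cells captured as such (10-cell) and 40 aliquots of pooled cells (pool-and-split) at each of 12 and 90 dpi. The promoter driving Cre and the age of the mice are not given in the sources used here, and no label says how many mice the small libraries came from.

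Before a cell divides it copies its genome once. In G1 the origin recognition complex, with Cdc6 and Cdt1, loads the MCM ring at origins, and geminin (Gmnn) blocks a second loading. In S phase the Cdc7 kinase, Cdc45 and the GINS complex turn the ring into an active helicase, primase and the polymerases copy the strands on the Pcna clamp loaded by replication factor C, and ribonucleotide reductase (Rrm1, Rrm2) supplies deoxynucleotides. Many of these genes are known targets of E2F transcription factors, and OPCs remain able to divide in the adult brain.

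The promoters of 4 members are shown because E2F sites are the shared regulatory feature for which this gene group is known, and because these 4 differ in what was measured in tumours. Each window runs from 250 bases before to 50 bases after the gene start in RefSeq (GRCm38.p6), 5′ to 3′ on the gene's strand. Capitals mark E2F words on either strand, where neighbouring words may overlap. The words searched were TTGGCGC for the core of the consensus, with the variant TTCCCGC, another variant TTGCCGC, and also the form TTCGCGC in place of these. Mcm6 (chr1:128359656-128359955, minus strand) held 5 words, Mcm5 (chr8:75109259-75109558, plus strand) 3, Rrm2 (chr12:24708004-24708303, plus strand) 1 and the printed window of the 2 of Cdc7 (chr5:106964311-106964610, plus strand) 2.
Mcm6: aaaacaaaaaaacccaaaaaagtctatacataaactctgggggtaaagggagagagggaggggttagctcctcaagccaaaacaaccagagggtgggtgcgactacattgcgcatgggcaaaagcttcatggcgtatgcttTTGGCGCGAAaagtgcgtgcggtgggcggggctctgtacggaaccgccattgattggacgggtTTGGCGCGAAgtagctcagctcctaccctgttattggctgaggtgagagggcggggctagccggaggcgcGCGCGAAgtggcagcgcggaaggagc
Mcm5: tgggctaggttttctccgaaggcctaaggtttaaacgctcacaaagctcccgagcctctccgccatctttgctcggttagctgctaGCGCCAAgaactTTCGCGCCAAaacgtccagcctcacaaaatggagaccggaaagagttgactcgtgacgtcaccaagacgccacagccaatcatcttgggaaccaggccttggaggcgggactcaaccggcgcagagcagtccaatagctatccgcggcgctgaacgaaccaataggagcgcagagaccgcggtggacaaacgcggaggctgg
Rrm2: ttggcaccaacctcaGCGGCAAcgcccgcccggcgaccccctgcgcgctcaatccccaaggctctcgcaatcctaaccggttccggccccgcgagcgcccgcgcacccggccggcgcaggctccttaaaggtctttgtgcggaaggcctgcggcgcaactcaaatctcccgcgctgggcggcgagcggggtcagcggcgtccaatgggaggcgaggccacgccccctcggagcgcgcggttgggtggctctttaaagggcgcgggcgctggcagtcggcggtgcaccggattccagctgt
Cdc7: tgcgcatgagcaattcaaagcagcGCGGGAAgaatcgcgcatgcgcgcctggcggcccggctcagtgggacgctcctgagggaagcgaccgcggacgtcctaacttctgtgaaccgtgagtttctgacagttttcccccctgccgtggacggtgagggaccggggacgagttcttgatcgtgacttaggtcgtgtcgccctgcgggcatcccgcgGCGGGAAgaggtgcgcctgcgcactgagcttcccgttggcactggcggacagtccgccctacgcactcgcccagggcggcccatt

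Of the 39 members, 31 had a window, and 19 of them (61.3%) held at least 1 of these words, against 10.9% of the 27025 genes with a window. At least 2 words stood in 9 members, against 1.37% of genes. The CCAAT box (CCAAT, either strand) stood in 18 members (58.1%) against 41.1% of genes, and the words TTTGAA or TTCGAA in 8 (25.8%) against 21.7%. Members with and without a word both included many that rose. Among members with an E2F word 16 of 19 were called higher in tumours (median log2 change 1.88), and among those without 11 of 12 were (median 1.50). A match describes letters only and is not a measured binding site. No window was used for Mcm4, Rfc2, Gins1, Gins2, Gins4, Gmnn, Pole and Prim2.

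Bulk library totals ran from 0.0937 to 23.2 M counts (M, 1000000 counts). The 10-cell libraries held 1.64 to 6.49 M and the pool-and-split libraries 1.91 to 5.16 M. The animal WT_21167 at 90 dpi had 0.0936 M counts in all and so 0 to 13 counts for any member. At 150 dpi WT animals held 2.32 to 14.8 M counts (median 4.19). Tumours, each with 2 libraries summed, held 4.91 to 31.3 M (median 24.0). Low members thus rest on few counts in WT of 150 dpi, with 0 to 10 per animal for Gins1 and 0 to 21 for Tk1. The 2 libraries of CKO_20647 at 90 dpi differed by a median of 2.07 on the log2 scale over the members, against 0.15 to 0.52 in the other 10 animals with 2 libraries. All 39 members passed the filter on low counts in the bulk animals, so every member was tested in every bulk comparison. OPC markers were present in every group (summed level of 8 markers 1572 to 8561 counts per 1000000, CPM), and neuron markers were too (7 markers, 5623 to 13055 CPM outside the tumours). Bulk samples may thus have held RNA of other cells, which was not tested.

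The first question was whether replication genes were higher in tumours than in WT OPCs of the same time. Most of them were, and every role held some that were. At 150 dpi 33 of the 39 members rose and 0 fell (edgeR quasi-likelihood test, adjusted p under 0.05), where 24.3% of all 16349 tested genes were called higher and 21.9% lower. The median log2 change over the members was 1.72, against 0.06 over all genes. Levels of single animals are plotted for 12 members by group.

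**Figure D1:**
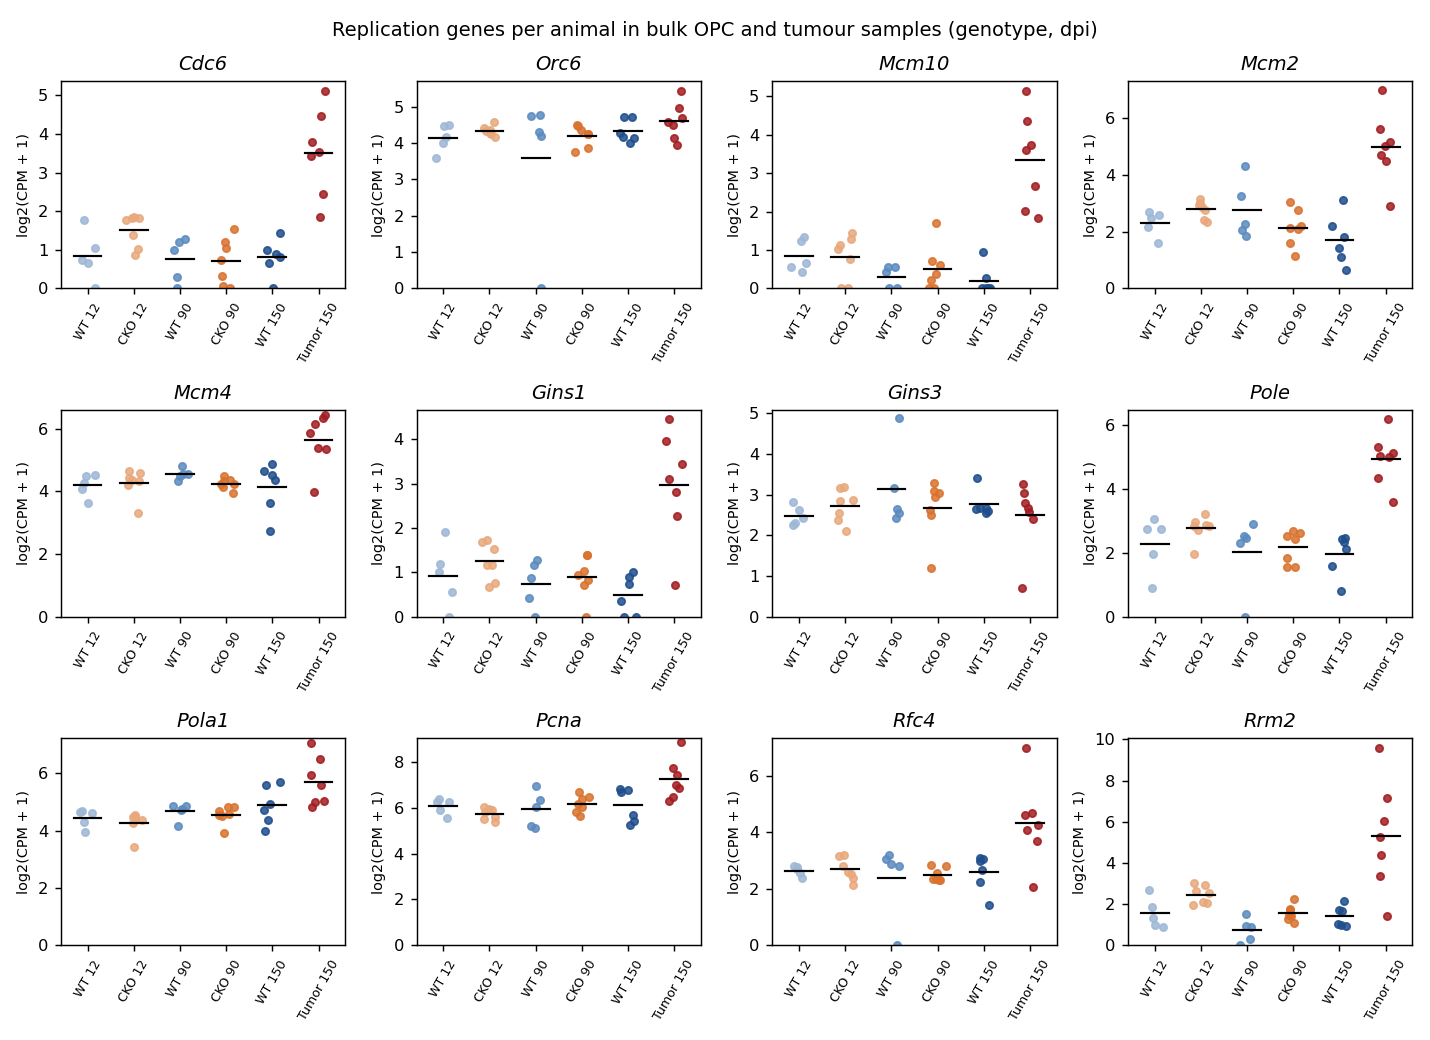
Level of 12 replication genes in each bulk animal, as log2(CPM + 1) on the y axis, by genotype and days after tamoxifen on the x axis. Points are animals and lines are group means. Cdc6, Mcm10 and Pole in the 7 tumours lie above every WT animal of 150 dpi, whereas the Orc6 and Gins3 ranges overlap.

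Of the licensing genes 5 of 6 rose. Cdc6 (ENSMUSG00000017499, chromosome 11, 98907801 to 98923940), the factor that brings the MCM ring to the origin, had 0, 0.57, 0.76, 0.87, 1.00 and 1.70 CPM in the 6 WT animals, with a lowest of 2.58, a median of 10.5 and a highest of 33.7 CPM in the 7 tumours. The groups did not overlap, though the WT values rest on 0 to 25 counts per animal. Its log2 change was 3.83 (SE 0.69, adjusted p = 1.8e-05, edgeR). Cdt1, its partner in loading, changed by 3.21 (SE 0.55), Gmnn by 2.33 (SE 0.52), Orc1 by 1.94 (SE 0.50) and Orc2 by 0.62 (SE 0.20). The call of Orc2 was lost without Tumor_16839 (log2 change 0.44, adjusted p = 0.0503, edgeR). Orc6 (ENSMUSG00000031697, chromosome 8, 85299632 to 85308278), the smallest subunit of the origin recognition complex, had 19.7 ± 4.60 CPM in WT (SD, n = 6) and 24.8 ± 9.40 in tumours (SD, n = 7). These ranges overlapped, and its log2 change of 0.34 (SE 0.23, adjusted p = 0.230, edgeR) did not pass.

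All 7 genes of the MCM group rose, with a median log2 change of 3.69. Mcm10 (ENSMUSG00000026669, chromosome 2, 4989714 to 5012791), which helps to start the helicase, was at 0 in 4 WT animals and at 0.20 and 0.95 CPM in the others. In tumours its lowest, median and highest levels were 2.58, 11.2 and 34.4 CPM, with no overlap. The log2 change was 5.45 (SE 0.92, adjusted p = 7.5e-06, edgeR), and its size rests on very few counts in WT: without WT_21593 it was 6.95. Mcm2 (ENSMUSG00000002870, chromosome 6, 88883474 to 88898780), a subunit of the ring, had 0.57, 1.16, 1.67, 2.55, 3.54 and 7.66 CPM in WT animals and 6.45, 31.5 and 126 CPM as the lowest, median and highest of the tumours. A single tumour, Tumor_21256, fell inside the WT range. Its log2 change was 3.69 (SE 0.53, adjusted p = 4.9e-07, edgeR), and 4.30 without WT_21593. The other subunits changed by 4.10 (Mcm3), 3.69 (Mcm5), 2.26 (Mcm6), 1.68 (Mcm7) and 1.54 (Mcm4).

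The ring subunits act as 1 complex but did not start from like levels. Per length (mean CPM per kilobase of the longest coding transcript), Mcm2, Mcm3 and Mcm5 were at 0.85, 0.78 and 0.69 in WT at 150 dpi, and Mcm6, Mcm4 and Mcm7 at 2.94, 5.16 and 7.17. In tumours the same order was 12.5, 13.5 and 9.60, then 14.2, 15.4 and 23.4, so that the 6 levels stood closer together. No test was made of that pattern, and the short-fragment libraries' coverage along transcripts is not given in the sources used here.

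Origin firing was the role with the fewest calls, 3 of 6. Gins1 (ENSMUSG00000027454, chromosome 2, 150905400 to 150931280), a GINS subunit, had 0, 0, 0.29, 0.68, 0.85 and 1.00 CPM in WT and 0.65, 7.60 and 20.8 CPM as the lowest, median and highest of the tumours. Only Tumor_21256 lay inside the WT range. Its log2 change was 4.06 (SE 0.72, adjusted p = 1.4e-05, edgeR). Cdc45, the helicase cofactor, changed by 3.32 (SE 0.58), and by 2.56 (SE 0.50) without Tumor_16844. Gins2, a further GINS subunit, changed by 0.94 (SE 0.34, adjusted p = 0.0231, edgeR). The call of Gins2 was lost without Tumor_21349 (log2 change 0.71, adjusted p = 0.0859) or without WT_21591 (0.82, adjusted p = 0.0619).

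Gins3 (ENSMUSG00000031669, chromosome 8, 95633453 to 95645060), another GINS subunit, had 5.92 ± 1.80 CPM in WT (SD, n = 6) and 5.29 ± 2.51 in tumours (SD, n = 7), a log2 change of -0.21 (95% interval -0.94 to 0.53). Cdc7, the kinase that fires origins, had 29.8 ± 4.38 CPM in WT (SD, n = 6) and 28.7 ± 7.04 in tumours (SD, n = 7), a log2 change of -0.05 (95% interval -0.39 to 0.29) that became 0.10 with RLE size factors and 0.11 with DESeq2. The interval of Cdc7 leaves out a change as large as the members' median. Gins4 (log2 change 0.46, adjusted p = 0.102, edgeR) also missed the threshold, but passed it with RLE size factors (0.61, adjusted p = 0.0262). Its subunit partners Gins1 and Gins3 therefore stood at the opposite ends of this role.

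All 8 primase and polymerase genes rose. Pole (ENSMUSG00000007080, chromosome 5, 110286306 to 110337474), the catalytic subunit of the leading-strand polymerase, had 0.76, 2.03, 3.34, 4.06, 4.43 and 4.53 CPM in WT and 11.2, 31.9 and 72.0 CPM as the lowest, median and highest of the tumours. There was no overlap, and the log2 change was 3.38 (SE 0.42, adjusted p = 2.5e-08, edgeR). Pola1 (ENSMUSG00000006678, chromosome X, 93304767 to 93632155), the catalytic subunit that works with primase, had 31.4 ± 14.8 CPM in WT (SD, n = 6) and 59.9 ± 38.5 in tumours (SD, n = 7). Its ranges overlapped (15.0 to 51.0 and 27.5 to 132 CPM). The log2 change was 0.96 (SE 0.30, adjusted p = 0.00916, edgeR), and without Tumor_16839 it was 0.60 (adjusted p = 0.0709). Pole2, Pold2, Prim1, Pold1, Prim2 and Pola2 changed by 2.10, 1.75, 1.72, 1.63, 1.31 and 1.09.

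Of the clamp and lagging-strand genes 5 of 7 rose. Pcna (ENSMUSG00000027342, chromosome 2, 132249162 to 132253314), the sliding clamp, had the highest level per length of all members in WT at 150 dpi (49.6 CPM per kilobase). It had 37.2, 41.8, 50.7, 104, 108 and 111 CPM in WT animals and 78.0, 127 and 464 CPM as the lowest, median and highest of the tumours. Tumor_16844 and Tumor_21256 lay inside the WT range, and the log2 change was 1.27 (SE 0.33, adjusted p = 0.00188, edgeR). Rfc4 (ENSMUSG00000022881, chromosome 16, 23113943 to 23127737), a clamp loader subunit, changed by 2.48 (SE 0.47, adjusted p = 3.7e-05, edgeR) and by 1.53 (SE 0.33) without Tumor_16844. Lig1, the ligase that joins Okazaki fragments, changed by 1.88, Rfc3 by 1.64 and Rfc5 by 0.79. Fen1 (ENSMUSG00000024742, chromosome 19, 10199132 to 10204169), the flap nuclease, had 7.73 ± 4.31 CPM in WT (SD, n = 6) and 9.15 ± 4.65 in tumours (SD, n = 7), which overlapped (log2 change 0.31, SE 0.37, adjusted p = 0.519, edgeR). Rfc2 (0.47, adjusted p = 0.0588, edgeR) missed the threshold, and passed it with RLE size factors (0.61, adjusted p = 0.0114).

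All 5 deoxynucleotide genes rose. Rrm2 (ENSMUSG00000020649, chromosome 12, 24708241 to 24714146), the small subunit of ribonucleotide reductase, showed the widest tumour range of any member. WT animals had 0.89, 1.00, 1.02, 2.17, 2.32 and 3.40 CPM. The tumours had a lowest of 1.72, a median of 37.1 and a highest of 770 CPM, and only Tumor_21256 overlapped with WT. The log2 change was 6.47 (SE 0.91, adjusted p = 3.0e-07, edgeR), and 4.58 (SE 0.68) without Tumor_16839. Tk1, the salvage thymidine kinase, changed by 4.36 (SE 0.63), or 5.53 without WT_21593, Tyms, which makes thymidylate, by 1.74 and the large subunit Rrm1 by 1.47. Dut (ENSMUSG00000027203, chromosome 2, 125247190 to 125258608), which removes dUTP, had 19.0 ± 6.65 CPM in WT (SD, n = 6) and 37.4 ± 22.6 in tumours (SD, n = 7). Its log2 difference was 0.95 (SE 0.27, adjusted p = 0.00416, edgeR).

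**Figure D2:**
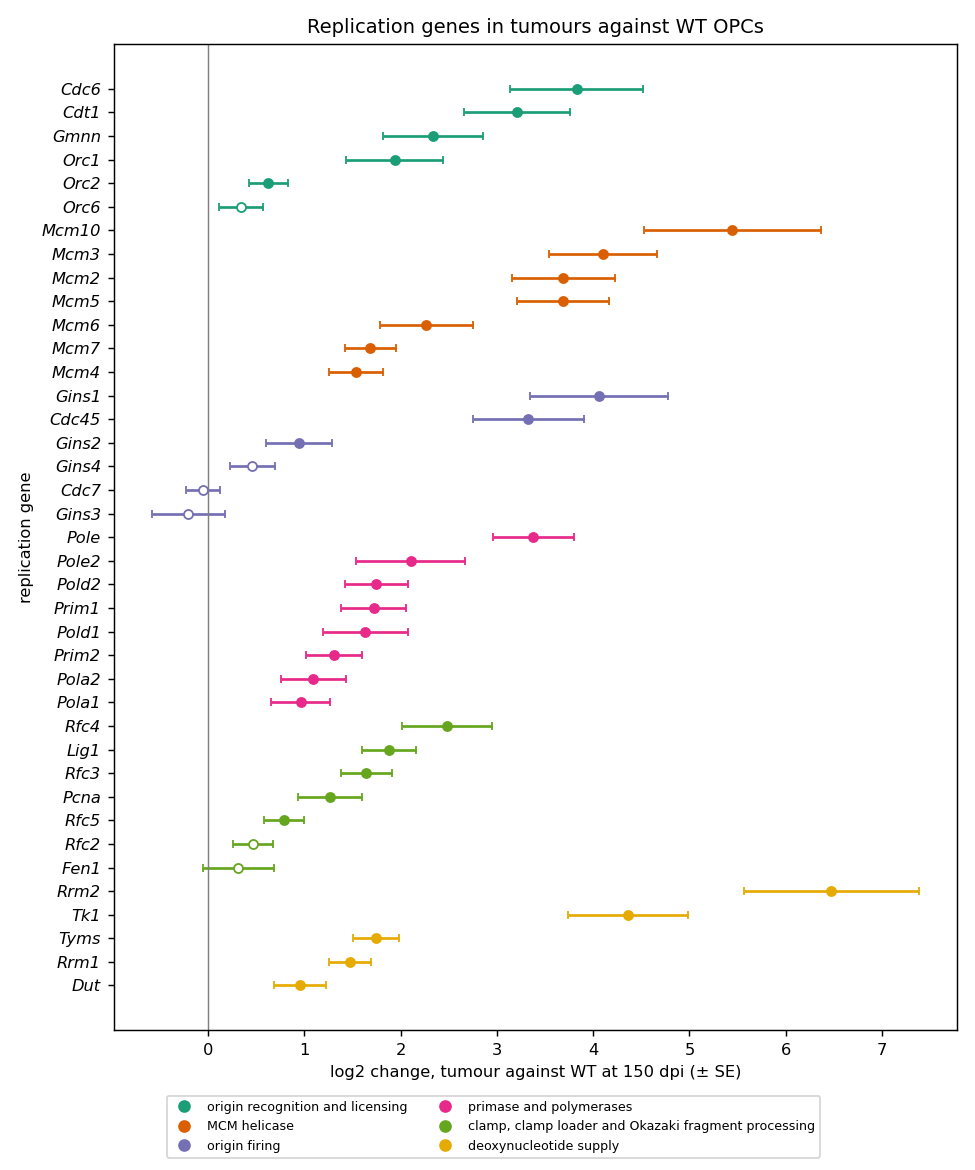
Log2 change of the 39 replication genes in tumours against WT at 150 dpi (x axis, bars are SE from the edgeR fit), grouped by role in colour on the y axis. Filled points passed an adjusted p of 0.05 and open points did not; the 6 open points are Orc6, Gins4, Cdc7, Gins3, Rfc2 and Fen1.

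Fitting the groups of this comparison by themselves ended the calls of Gins2, Orc2 and Pola1 (adjusted p = 0.0752, 0.0677 and 0.0719, edgeR). Gins2 also missed the threshold with the deepest library of each animal (adjusted p = 0.0762), and DESeq2 called Orc6 (log2 change 0.50, adjusted p = 0.0347).

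Other lists, also chosen with earlier results of these data known, moved in the same samples. Of all tested genes 24.3% were called higher and 21.9% lower there. Of 34 further replication genes 25 rose and 1 fell (Donson, -0.51, SE 0.22), led by Clspn (log2 change 4.83), the checkpoint adaptor claspin, and Recql4 (4.18). Of 11 further nucleotide enzymes 7 rose, among them Dctd (2.59), and Nme1 fell (-0.86). Of 19 E2F and S-phase entry genes 13 rose, led by Ccna2 (4.43), the S-phase cyclin A, and E2f7 (3.68), and Rb1, the E2F inhibitor, fell (-0.74). All 20 mitosis genes rose, led by Ccnb1 (8.46) and Ube2c (7.18), with a median of 5.16.

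Markers of cell types moved in the same comparison (all genes 24.3% higher and 21.9% lower), and their part in the result was not tested. All 8 OPC markers rose (summed level 1580 to 3356 CPM in WT and 4183 to 8561 in tumours), 8 of 9 microglia and macrophage markers rose (93.5 to 127 and 242 to 798 CPM), and 6 of 7 neuron markers fell (6692 to 10018 and 213 to 1456 CPM). Of 7 oligodendrocyte markers 4 fell and 1 rose (Cnp). Of 6 astrocyte markers 2 rose and 2 fell, 1 of 5 endothelial and 2 of 3 pericyte markers fell. The summed lymphocyte markers stayed low (0 to 2.80 and 0.94 to 13.2 CPM). In bulk samples, more cells in cycle and more RNA per cell cannot be told apart.

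Tumours were also compared with CKO OPCs at 90 dpi, the last time before tumours were collected. Here 32 members rose and 0 fell (26.4% of all genes higher and 22.6% lower), with a median log2 change of 1.61 against 0.12 over all genes. This comparison uses the same tumours as the one with WT. Rrm2 was at 1.13 to 3.73 CPM in the 7 CKO animals and changed by 6.03 (SE 0.80), or 4.29 without Tumor_16839, Mcm2 by 3.40 (SE 0.47) and Pcna by 1.30 (SE 0.31). The 7 members that did not pass were Cdc7, Gins2, Gins3, Gins4, Orc6, Rfc2 and Fen1. Gins2 was at 30.5 CPM on average in CKO animals of 90 dpi and 37.5 in tumours, against 19.0 in WT of 150 dpi. WT animals of 12 dpi averaged 29.1 CPM. Those of 90 dpi had a mean of 27.5 and a median of 34.2 CPM, with 0 counts in WT_21167. The lowest WT animal of 150 dpi, WT_21592, had 1.70 CPM from 3 counts.

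The difference of CKO or tumour cells from WT was itself compared between 150 and 90 dpi. It was larger at 150 dpi for 28 members and smaller for 0 (edgeR interaction, adjusted p under 0.05), where 14.2% of all genes had a larger and 15.8% a smaller value. Among the 28 were Rrm2 (5.35, SE 1.24), Mcm10 (4.52), Cdc6 (4.07) and Mcm2 (3.99, SE 0.71). Pcna (0.97, SE 0.48, adjusted p = 0.129, edgeR) was not among them. All CKO samples of 150 dpi are tumours, so tumour state and time cannot be told apart here. The tumours and the WT animals of 150 dpi are also those of the first comparison.

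At the times before tumours, no member passed the test between CKO and WT. At 12 dpi 0 of 39 passed (0.0183% of all genes did), 0 had an unadjusted p under 0.05 (4.85% of genes did) and DESeq2 also called 0. The members' median log2 difference was 0.20 (all genes 0.03), and 31 of 39 were above 0, as were 8876 of 16349 genes. Rrm2 had 0.87, 0.97, 1.52, 2.68 and 5.47 CPM in WT and 2.93 to 7.21 CPM in CKO animals (median 4.73), so the groups overlapped (log2 difference 1.30, 95% interval -0.44 to 3.03). Mcm2 differed by 0.53 (95% interval -0.49 to 1.55) and Pcna by -0.34 (95% interval -1.01 to 0.34). The 95% intervals reached 0.36 to 1.74 to either side of the members' log2 differences. For 20 of the 39 members the interval lay within a doubling or halving, and for the other 19 it took in at least 1 of these. Beside this, all 20 mitosis genes were above 0 at 12 dpi (median 1.04), though 0 passed.

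At 90 dpi 0 members passed (0.0489% of all genes did) and DESeq2 called 0. Gmnn alone had an unadjusted p under 0.05 (5.2% of genes did), at a log2 difference of -1.28 (SE 0.53, adjusted p = 0.898, edgeR). The median was -0.08 (all genes 0.04), and 17 of 39 members were above 0, where 9031 of 16349 genes were. Of the 20 mitosis genes 18 were above 0 at 90 dpi (median 0.87), though 0 passed. Rrm2 had 0, 0.25, 0.83, 0.93 and 1.85 CPM in WT and 1.13 to 3.73 CPM in CKO (median 1.79), which overlapped (1.13, 95% interval -0.65 to 2.90).

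Time alone moved no member past the threshold. Between 90 and 12 dpi 0 members passed in CKO (0% of genes, 4.26% at an unadjusted p under 0.05, members 0) and 0 in WT (0.00612% of genes, 4.86% unadjusted, members 0). Between 150 and 90 dpi in WT 0 passed (0.0183% of genes). There Mcm6 alone had an unadjusted p under 0.05 (8.26% of genes), at a log2 change of 1.11 (SE 0.54), and its highest value was 32.3 CPM in WT_21592. For the change of the genotype difference between 12 and 90 dpi no member passed (0 of 39, 0% of genes, 3.6% unadjusted, with Gmnn alone at -1.81, SE 0.76). DESeq2 called 0 members in each of these 4 comparisons.

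The 7 tumours differed widely among themselves. Tumor_21349 had the highest level of 29 of the 39 members and Tumor_21256 the lowest of 33. The median member stood 2.73 above the WT mean of 150 dpi on the log2 CPM scale in Tumor_21349, 0.20 above it in Tumor_21256 and 1.30 to 2.09 above it in the other 5. Single animals of the 5 groups without tumours lay between -0.46 and 0.49. The summed level of all members was 549.5 CPM in Tumor_21256, inside the range of animals without tumours (439.5 to 563 CPM), and 999 to 2653 CPM in the other 6 tumours.

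**Figure D3:**
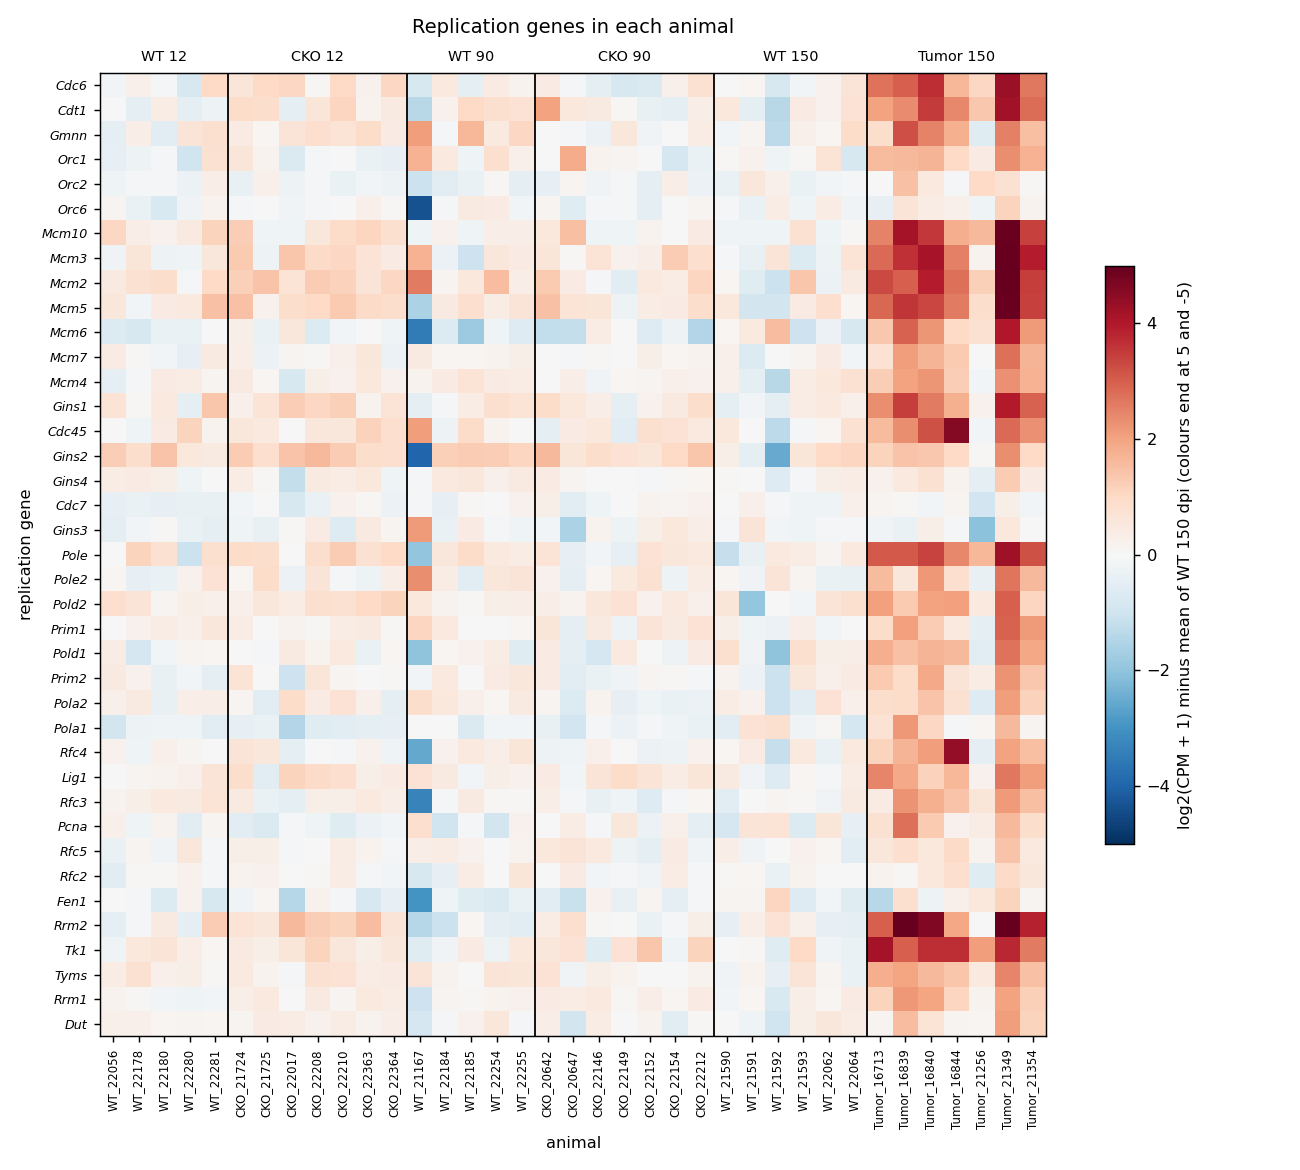
Each of the 39 replication genes (rows, by role and then by change) in each of the 37 bulk animals (columns, by group), as log2(CPM + 1) minus the mean of WT at 150 dpi; colours end at 5 and -5. The tumour columns are red for most genes except in Tumor_21256, and single dark cells stand at Cdc45 and Rfc4 in Tumor_16844.

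Because of Tumor_21256, few members separated completely. In 6 members (15.4%) every tumour was above every WT animal of 150 dpi, namely Mcm10, Mcm5, Tk1, Cdc6, Cdt1 and Pole, against 6.72% of all genes. Without Tumor_21256 this held for 24 members (61.5%), against 9.03% of all genes. It was left out after it was seen to be the lowest tumour for 33 members. The shares without it therefore do not compare like with like. That tumour had the fewest counts of the 7 (4.91 M). Its 2 libraries differed more than those of any other tumour, by a median of 0.52 on the log2 scale over the members (0.15 to 0.36 in the others). As CPM of the unscaled library totals, they gave 5.59 and 6.84 for Mcm2, 0.98 and 2.10 for Rrm2 and 1.75 and 4.89 for Rfc4. Its summed mitosis genes, 631 CPM, were the lowest of the tumours and above every animal without a tumour (18.4 to 182 CPM). Its summed OPC (8561 CPM), neuron (1456 CPM), astrocyte (3192 CPM) and endothelial markers (180 CPM) were the highest of the tumours and its microglia and macrophage markers (242 CPM) the lowest. The part of these in its low member levels was not tested.

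Single tumours widened the range of some members. Rrm2 ran from 1.72 to 770 CPM over the tumours and from 1.72 to 142 CPM without Tumor_16839. Each member's level in a tumour, as log2(CPM + 1), was set against the median of the other 6 tumours, and the same was done for genes within 1 Mb that had a mean of at least 5 CPM over the tumours. This view was chosen after the values were seen. Of 273 pairs of a member and a tumour, 7 stood more than 2 above the others. The neighbours' median ran from -0.85 to 2.96 over all pairs, with quartiles of -0.23 and 0.21, and was over 1 in 6 pairs. Of these 6, 3 were among the 7 and are described next. The others were Pola1 (1.73, neighbours 1.37) and Dut (1.11, neighbours 1.41) in Tumor_16839 and Dut in Tumor_21256 (-0.82, neighbours 1.07).

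Rrm2 in Tumor_16839 stood 4.76 above the others, and all 9 of its neighbours were over 1, with a median of 2.96. Raised genes lay on both sides of Rrm2 and past the stretch given next. In that tumour 34 of the 40 genes from Mycn to Rrm2 on chromosome 12 (12936093 to 24714146) were over 1 (median 2.26), against a median of -0.19 for the other 406 genes of the chromosome. In the other 6 tumours the same stretch had medians of -0.74 to 0.36. Mycn itself, a growth-promoting transcription factor, was at 1141 CPM against 5.92 to 111 CPM in the others, and Odc1, the first enzyme of polyamine synthesis, at 1768 against 71.7 to 269 CPM. Both libraries of the tumour gave like Rrm2 levels, 642 and 669 CPM of the unscaled totals.

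Cdc45 and Rfc4 in Tumor_16844 stood 2.29 and 2.81 above the others, and both lie on chromosome 16. From Cdc45 to Rfc4 (18780447 to 23127737) 33 of 37 genes were over 1 there (median 2.37), against -0.11 for the other 339 genes of the chromosome. In the other 6 tumours that stretch had medians of -0.62 to 0.28. Mcm4, a member on the same chromosome outside the stretch (15623897 to 15637400), stood at -0.63 in Tumor_16844. The 2 libraries of this tumour gave 54.0 and 80.1 CPM for Cdc45 and 95.2 and 184 CPM for Rfc4. DNA of the tumours was not analysed here.

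Tumor_21349 also held values of this size, with neighbours nearer to 0. Rrm2, Mcm6, Mcm2 and Mcm10 stood 2.33, 2.26, 2.13 and 2.00 above the other tumours, with neighbour medians of 0.01, 0.42, 0.51 and 0.22.

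**Figure D4:**
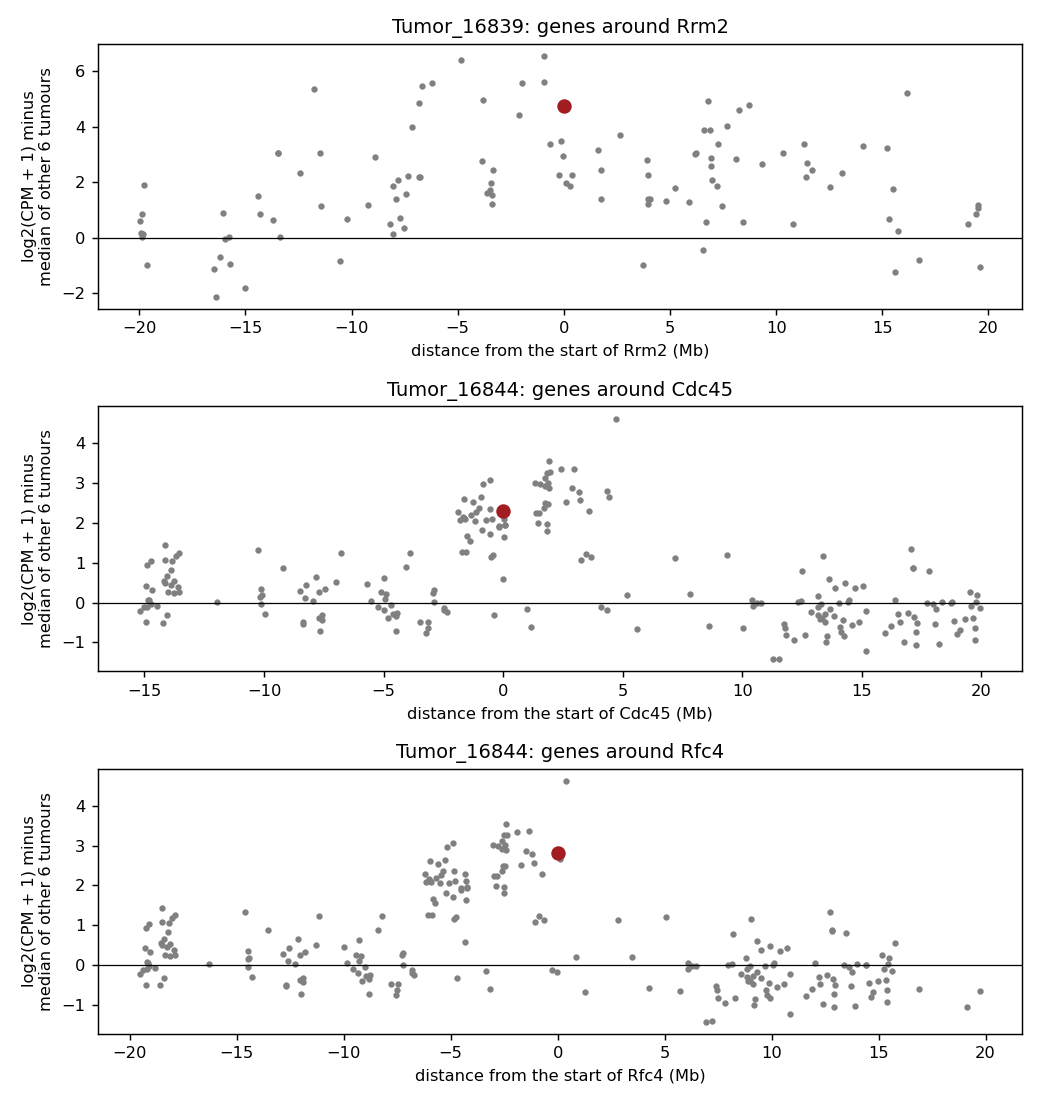
Genes around Rrm2 in Tumor_16839 and around Cdc45 and Rfc4 in Tumor_16844, by distance from the named gene's start in Mb (x axis), as log2(CPM + 1) minus the median of the other 6 tumours (y axis). Red points are the named genes at 4.76, 2.29 and 2.81; grey points are other genes with a mean of at least 5 CPM. Genes on both sides of Rrm2 are raised over most of the plotted window, while around Cdc45 and Rfc4 the raised genes form a block, with genes on either side of it scattered about 0.

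In small libraries most members were found in only part of the libraries. A member counts as detected where its expected count is above 0. The most often detected in the 112 10-cell libraries were Tyms (96.4%), Rrm1 (95.5%), Rfc2 (88.4%), and Pcna and Pole (85.7% each). The least often detected were Cdc6 (1.79%), Cdc45 and Rrm2 (6.25% each) and Orc1 (7.14%), and Cdc6 had 0 of 56 libraries at 12 dpi, which allows a share of up to 5.36% (3 of 56, counting error only), and 2 of 56 at 90 dpi. Pool-and-split libraries gave a like order at the ends, with Rrm1 and Tyms in 98.8% and Cdc6 in 2.5%. A single library could hold much of a rare member: Mcm10 was in 1 of 56 10-cell libraries at 12 dpi, at 869 CPM, while its median was 0.

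The number of members detected per library had a median of 14 (range 1 to 32) in 10-cell libraries at 12 dpi and 23 (7 to 33) at 90 dpi. The female sets had medians of 15.5 and 12 at 12 dpi and 23.5 and 25 at 90 dpi, and the male sets 13.5 and 15.5, then 15.5 and 19. Whether the sexes differ in this was not tested. In pool-and-split libraries it was 18.5 at both times (8 to 25 and 12 to 26). All genes detected moved with it, with medians of 7550.0 and 10109.5 in 10-cell libraries at 12 and 90 dpi, and 8690.5 and 8739.0 in pool-and-split libraries. Thinned to 1500000 counts per library, the 10-cell medians were 12 and 20 members. The rise in members was thus seen beside a rise in all genes, and its separate part was not tested.

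**Figure D5:**
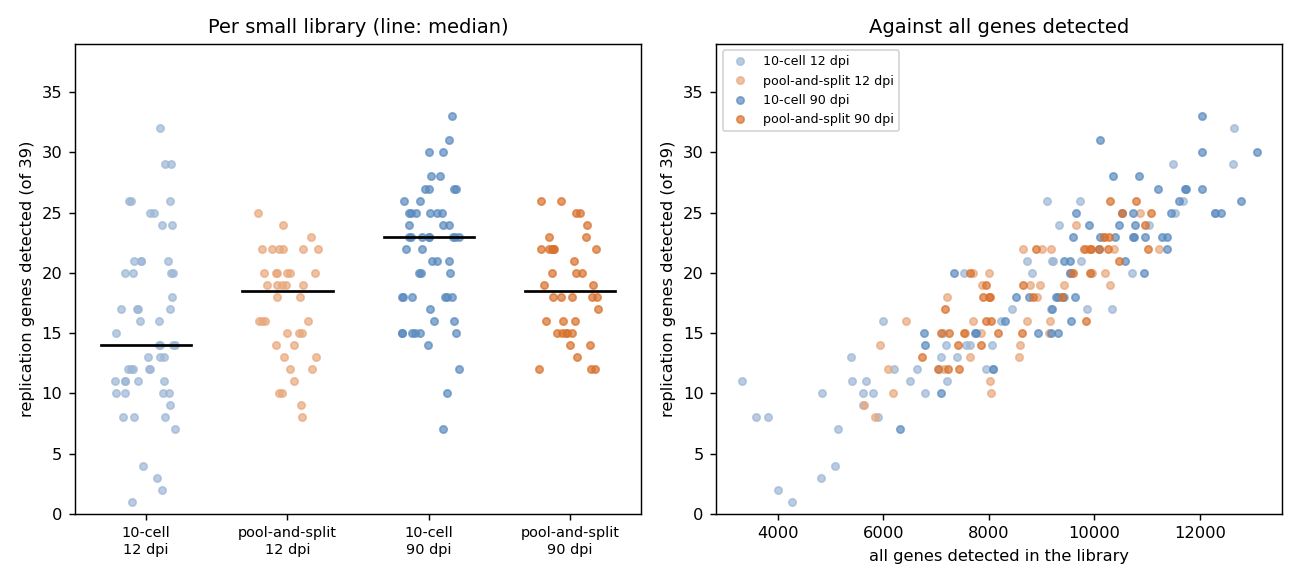
Replication genes detected in each small library (y axis, of 39), by kind and time (left, lines are medians) and against all genes detected in the library (right). The medians are 14 and 23 in 10-cell and 18.5 in both pool-and-split groups, and libraries with more genes of any kind hold more replication genes.

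Levels in small libraries were compared between times over 4 sets per time. Of 35 members that passed the filter in 10-cell sets 0 were called (0% of genes), and 1 higher and 3 lower ones had an unadjusted p under 0.05 (7.13% of genes). These were Tk1 (2.77, SE 0.96), Rfc3 (-3.81, SE 1.14), Rrm1 (-1.41, SE 0.50) and Cdc45 (-4.63, SE 1.81). Some of these rest on few libraries or low levels. Rfc3 reached 2933 CPM in its highest library at 12 dpi, where its mean was 74.8 and its median 0 CPM. Cdc45 was detected in 4 of 56 libraries at 12 dpi and 3 of 56 at 90 dpi. Tk1 averaged 0.20 CPM at 12 dpi and 1.50 at 90 dpi. With 1 set left out, Tk1 ran from 1.91 to 3.09, Rfc3 from -4.56 to -2.07 and Cdc45 from -5.63 to -3.65. The lowest Tk1 value was without the set male_1 of 90 dpi. The smallest Rfc3 and Cdc45 changes were without female_2 of 12 dpi, and their largest without male_2 of 90 dpi. DESeq2 called 1, Rfc3. In pool-and-split sets 0 of 32 were called (0% of genes), and 5 had an unadjusted p under 0.05 (7.83% of genes): Gins4 (2.70), Pole2 (2.13), Rfc2 (2.10), Fen1 (-4.24) and Mcm4 (-3.53). With 1 set left out these ran from 2.00 to 3.18, 1.50 to 2.76, 1.38 to 2.88, -5.49 to -3.53 and -4.98 to -2.74. DESeq2 called Gins4 and Fen1. The 95% intervals were wide, at a median of 2.11 to either side in 10-cell and 2.57 in pool-and-split sets. Changes of several-fold could therefore be missed for many members. The narrowest intervals reached 0.85 and 1.41 to either side.

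Cell-to-cell variation beyond handling was asked by setting the spread of 10-cell libraries against that of pool-and-split libraries. Of 13 members found in enough libraries at 12 dpi 0 passed (limma, 0.0252% of genes did), and 4 had an unadjusted p under 0.05 (9.48% of genes): Rfc2, Rrm1 and Rfc5 spread more, by 0.93, 0.76 and 0.66 in mean absolute deviation on the log2 scale, and Mcm7 less, by -0.86. The median difference at 12 dpi was 0.08 over these 13 members and 0.16 over all tested genes. At 90 dpi 0 of 22 passed (0.587% of genes did) and 0 had an unadjusted p under 0.05 (13.8% of genes).

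For 10 members another annotated transcript is at least 95% identical over 50% or more of the shorter one, so their counts could be shared. The copy of Pcna, Pcna-ps2, averaged 29.2 CPM in tumours and 21.2 in WT of 150 dpi against 179 and 75.3 for Pcna itself. Gins2 shares exact sequence with the overlapping Gse1 (25.3 and 78.8 CPM), and Rfc2 with Lat2 (4.65 and 0.91 CPM). The copies of Cdc6, Mcm6, Rfc5, Rrm2 and Tk1 averaged under 1 CPM in both groups. The copy of Lig1, 6330408A02Rik, averaged 25.0 CPM in tumours and 24.5 in WT, where Lig1 itself was at 44.2 and 11.5, and that of Pola2 1.50 and 1.13 CPM.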

How the data were processed

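The authors deposited RSEM expected counts per gene for 240 libraries in 1 table of 34623 genes and 92 spike-ins, unscaled. Bowtie2, RSEM and GRCm38 are named in the submitters' processing notes, without versions or roles. Amplification was by T7 transcription for bulk and by PCR for small samples, per the labels' protocols, with no molecular identifiers named. Coordinates are those of the deposited table.

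Members and gene lists were chosen with earlier results of these data known. Groups come from the labels. Expected counts were rounded, and the 2 libraries of each of 11 animals were summed, giving 37 animals. Tests used edgeR 4.0.16 in R 4.3.3: low genes were dropped by filterByExpr at a count of 10 and a total of 15, libraries scaled by TMM, and the quasi-likelihood F test run with sex as covariate, all animals in 1 fit, with Benjamini-Hochberg adjustment over all genes and calls at 0.05. SE is the log2 change divided by the square root of F, and 95% intervals are 1.96 SE to either side. CPM are counts per 1000000 of TMM-scaled totals. A prior count of 2 enters log2 CPM. Small libraries were summed to sets of equal time, sex and last title number. The number's meaning is not given, and same-numbered sets did not deviate together (correlations of -0.04 to 0.02). Spread was tested with limma 3.58.1 on absolute deviations of log2(CPM + 1) for genes detected in 50% of libraries. Where nothing says that libraries came from separate mice, p-values measure only the spread between those libraries.

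Named members are those with the largest and smallest change per role, Pcna, Mcm2 and Rrm2, those with the most and fewest detections, and the largest changes of other lists. Members outside this rule were named after their values were seen. Copies were found with blastn 2.17.0. Alternatives were DESeq2 1.42.0, RLE size factors, other filters, no sex covariate, the deepest library per animal, compared groups alone, each animal or set left out, a block on the set number, and other definitions of detection. The tests were tested on simulated data. Common biological variation was 0.418 in bulk, 0.955 in 10-cell and 1.08 in pool-and-split sets.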

Additional observations from a re-analysis of the deposited data

Results flagged for a closer look

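Single animals stood apart from the rest of their group for 28 of the 234 combinations of a member and a group, by the gap to the nearest animal relative to the group's range. Chance would flag about 1 in 20 groups if values were independent and normally distributed. The members share the same animals here, so whether the flags exceed chance was not tested. In the tumours the highest levels that stood apart were Mcm2 at 126 CPM in Tumor_21349, Mcm5 at 90.5 CPM in Tumor_21349, Mcm6 at 180 CPM in Tumor_21349, Pcna at 464 CPM in Tumor_16839, Rfc4 at 126 CPM in Tumor_16844, Rrm2 at 770 CPM in Tumor_16839, Cdc45 at 59.3 CPM in Tumor_16844, Gins2 at 76.2 CPM in Tumor_21349 and Pold2 at 55.6 CPM in Tumor_21349. Among WT animals at 150 dpi the highest levels that stood apart were Mcm10 at 0.945 CPM in WT_21593, Mcm6 at 32.3 CPM in WT_21592, Fen1 at 15.9 CPM in WT_21592, Tk1 at 1.98 CPM in WT_21593 and Gins3 at 9.58 CPM in WT_21591. Among CKO animals at 90 dpi the highest levels that stood apart were Mcm10 at 2.26 CPM in CKO_20647, Gins4 at 27 CPM in CKO_20642, Cdt1 at 9.62 CPM in CKO_20642 and Orc1 at 10.4 CPM in CKO_20647. Among CKO animals at 90 dpi the lowest level that stood apart was Pola1 at 14.1 CPM in CKO_20647. Among WT animals at 90 dpi the highest levels that stood apart were Gins3 at 28.4 CPM in WT_21167 and Pole2 at 9.48 CPM in WT_21167. Among WT animals at 90 dpi the lowest levels that stood apart were Rfc4 at 0 CPM in WT_21167, Rrm1 at 19 CPM in WT_21167, Gins2 at 0 CPM in WT_21167 and Pola1 at 16.9 CPM in WT_22185. Among CKO animals at 12 dpi the highest level that stood apart was Tk1 at 2.25 CPM in CKO_22208. Among CKO animals at 12 dpi the lowest level that stood apart was Pola1 at 9.74 CPM in CKO_22017. Among WT animals at 12 dpi the highest level that stood apart was Orc2 at 51.7 CPM in WT_22281. The 5 values of WT_21167 rest on 0 to 3 counts each.

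The difference between CKO or tumour cells and WT was larger at 150 than at 90 dpi for 28 members, by the interaction term of the edgeR fit at an adjusted p under 0.05. On the log2 scale it was larger by 5.35 for Rrm2, 4.52 for Mcm10, 4.07 for Cdc6, 4.00 for Gins1, 3.99 for Mcm2, 3.69 for Pole, 3.61 for Gmnn, 3.50 for Mcm5, 3.46 for Mcm3 and 3.34 for Tk1. For the next members it was larger by 3.29 for Cdc45, 3.29 for Cdt1, 2.99 for Rfc4, 2.55 for Pole2, 2.08 for Mcm6, 1.99 for Orc1, 1.95 for Tyms, 1.88 for Mcm4 and 1.86 for Rfc3. The smallest were 1.80 for Pola2, 1.79 for Mcm7, 1.75 for Prim2, 1.66 for Pold1, 1.63 for Lig1, 1.60 for Pold2, 1.53 for Prim1, 1.23 for Rrm1 and 1.13 for Dut.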

How the results depend on the processing

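The count of members higher in tumours than in WT (33) was 36 with DESeq2, 35 with RLE size factors, 33 with no filter, no sex covariate or the deepest library, 23 of 25 tested at a mean of at least 10 CPM, 30 with the compared groups alone, and 32 to 35 with an animal left out. Against CKO at 90 dpi it was 31 to 36 over these settings except for 23 of 25 at the stricter filter, and the genotype difference grew for 25 to 35 members except for 19 of 25. With an animal left out these were 31 to 35 and 25 to 32. The other 6 bulk comparisons had 0 called members under every setting run. RLE size factors moved the median of all genes by 0.15 in tumours against WT, and the share of higher calls in the genotype difference from 47.2% to 57.3% (58.6% with DESeq2). In small libraries DESeq2 called 1 member in 10-cell and 2 in pool-and-split sets, and a replicate block on the set number called 0 and 0, as did each set left out. Same-numbered sets do not pair: 1 of 4 correlated best with its own number in 10-cell and 0 of 4 in pool-and-split sets. Requiring an expected count of at least 5 gave medians of 9.5, 16, 13.5 and 13 members detected (10-cell at 12 and 90 dpi, then pool-and-split), and at least 1 CPM gave 10, 16, 14 and 14. Of 1210 recomputed changes of single members 1176 kept direction and call, 8 lost a call, 15 gained 1 and 11 changed sign, all of values that had not passed. Cdc7 in tumours against WT was 0.11 with DESeq2, 0.10 with RLE size factors, 0.053 at the stricter filter and -0.10 to 0.072 with an animal left out. Gins3 was -0.28 to 0.012, and Mcm2 in CKO against WT at 90 dpi -0.56 to 0.19. Gins2 in tumours against CKO at 90 dpi was -0.022 with the deepest library. The cause was not tested. Depth limits the members near 1 CPM in WT_21167, in WT animals of 150 dpi and in the small libraries.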
